A study of Selaginella nipponica with 6 samples.

Results

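Of the 206768 unigenes of the *Selaginella nipponica* transcriptome, 46 were at 2 to under 20 CPM (counts in 1000000 counts of the library) in prostrate shoots and close to absent from erect shoots. A unigene was counted among them when each of the 3 prostrate libraries held at least 10 counts, when its mean over these libraries was from 2 to under 20 CPM, and when its mean over the 3 erect libraries was under 5% of that level. DN103335_c0_g1, an *SPL* unigene that meets the same criteria, was not included. The members were thus chosen by the comparison of erect with prostrate shoots, and their difference between the types of shoots is given as a description. Where edgeR's calls on these members are listed, they come from the libraries that chose them and are not independent evidence. The erect shoots carried sporangia and represent the later, reproductive growth. The prostrate shoots were taken with their emerging roots and represent the earlier, vegetative growth. All plants grew wild and untreated in a single population, and 3 subsamples of each type of shoot served as replicates, and p-values measure no more than the variation among these subsamples.

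*Selaginella* is a genus of lycophytes, a lineage of vascular plants that bears microphylls and reproduces by spores. The creeping shoots bear rhizophores, leafless organs from which roots arise, while the upright shoots carry sporangia with megaspores and microspores. As RNA came from whole shoots, a transcript present in fewer cells cannot be told apart from a transcript with less RNA per cell, and this applies to every level below. Trinity, the assembler, groups transcripts that share sequence into a component, so a component can hold alleles, splice forms, close paralogs or fragments of a gene. The deposited counts are listed by Trinity identifier without gene names, and roles are therefore given only where the study states one.

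Total counts were between 18001140 and 20243961 in the erect libraries and between 15679145 and 17584120 in the prostrate libraries. At this depth a single count corresponded to between 0.0494 and 0.0556 CPM in the erect and between 0.0569 and 0.0638 CPM in the prostrate libraries. Counts of a member in a single prostrate library ranged from 10 to 557 with a median of 62.5. Transcript lengths were not used here, so the CPM values of different members also reflect their lengths. CPM values and percentages of the prostrate level use library totals, while fold values, log2 ratios and the edgeR fits use TMM scaling, under which the 23275 tested unigenes had a median log2 difference of -0.01, while library totals alone gave 0.10.

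Together the members had 141, 91 and 127 counts in erect replicates 1, 2 and 3, against 5003, 3873 and 5043 counts in prostrate replicates 1, 2 and 3. Their summed level averaged 6.32 ± 1.09 CPM in erect shoots and 279 ± 29.1 CPM in prostrate shoots (SD, n = 3 each). As a group they took a small part of the transcriptome even where they were present, with 0.0279% of the counts of the prostrate libraries. Mean levels in prostrate shoots ran from 2.02 to 18.9 CPM with a median of 4.18 CPM. Of the 46, 28 were under 5 CPM, 12 were from 5 to under 10 CPM, and 6 were at 10 CPM or more. The median log2 ratio of erect over prostrate counts per scaled total was -5.63, with members at 3 or fewer erect counts set to a floor of 3 counts over the erect libraries.

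**Figure D1:**
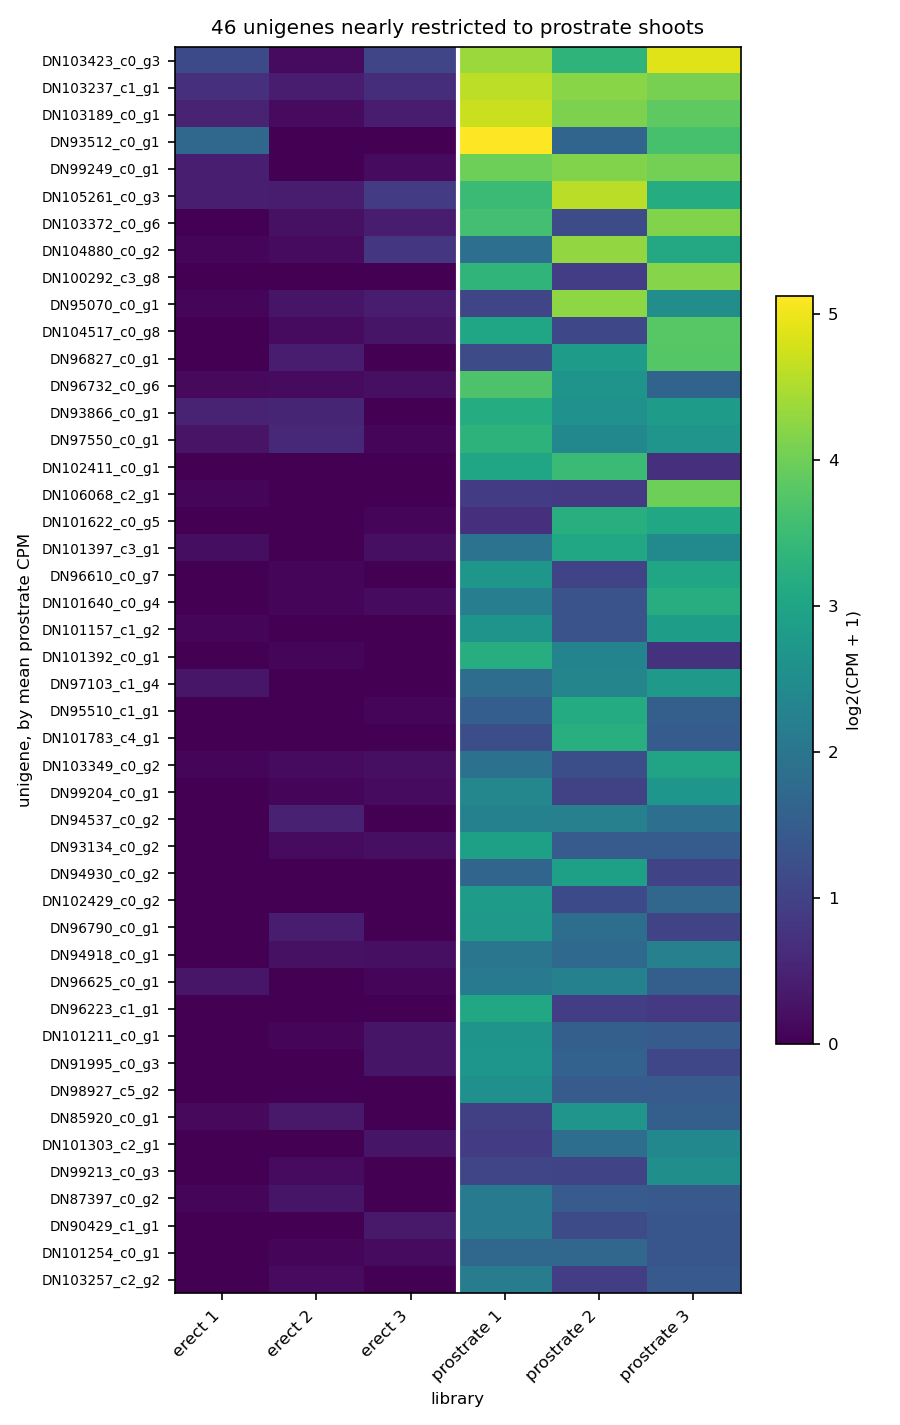
Expression of the 46 members (rows, by mean prostrate CPM) in each of the 6 libraries (columns, erect left of prostrate), coloured by log2(CPM + 1). The erect columns are dark in nearly all rows, with the highest erect values in DN93512_c0_g1 and DN103423_c0_g3 (46 and 25 counts in erect replicate 1), and many rows are bright in only 1 or 2 of the 3 prostrate columns.

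All 46 members passed edgeR's filter on low counts, and 45 of them were past both thresholds of a DEG (adjusted p under 0.05 and absolute log2 fold change above 1) with higher expression in the prostrate shoots, where 5.31% of all tested unigenes were called in that direction, and 4.61% of the other unigenes at the level of the members. In 45 members each prostrate library lay above each erect library, which held for 13.5% of all tested unigenes. Since the rule used the same libraries and the same contrast, these counts follow largely from the choice. Other fits called 44 members with DESeq2 (5.14% of all unigenes tested), 38 with limma-voom (5.39%), 45 with DESeq2 size factors (5.4%), 45 with library totals (4.46%), 46 without a filter (1.68%), 45 without a threshold on the fold change (6.48%) and 39 with the replicate number as a block (3.01%). The fit without a filter gave far lower adjusted p values than the main fit, as given below for DN93512_c0_g1. A filter at a mean count of 50 kept 15 of the members in the fit and called 14 of them (4.77%). When erect replicates 1, 2 and 3 were omitted singly, 34, 36 and 37 members were called (2.54, 2.77 and 3.71% of all). Omitting prostrate replicates 1, 2 and 3 gave 39, 38 and 42 (3.38, 4.46 and 5.26% of all), and 29 members were called in all 6 of these fits, as were 1.92% of all tested unigenes.

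The members with the highest prostrate CPM are described first. DN103237_c1_g1 had 13, 6 and 11 counts in erect replicates 1, 2 and 3, against 386, 276 and 276 counts in prostrate replicates 1, 2 and 3. Its level was even in both types of shoots, at 0.525 CPM on average in the erect and 18.9 ± 4.03 CPM in the prostrate shoots. DN103189_c0_g1 had 8, 2 and 6 counts in the erect and 413, 255 and 237 counts in the prostrate replicates, so that prostrate replicate 1 was the highest and all 3 lay far above the erect libraries. Its counts per scaled total were 69.4-fold lower in the erect shoots, and the exact 95% Clopper-Pearson interval, for counting error alone, ran from 42.5 to 122.

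DN99249_c0_g1 is the only member that the study's text mentions, where it is described as homologous to genes that affect shoot and root development in *Arabidopsis thaliana*. It had 7, 0 and 2 counts in erect replicates 1, 2 and 3, against 244, 264 and 272 counts in prostrate replicates 1, 2 and 3. The prostrate libraries thus differed little among themselves, and erect replicate 2 held no count at all. At 15.7 ± 1.03 CPM (SD, n = 3) in the prostrate shoots it had the smallest coefficient of variation (CV, the SD divided by the mean) of the 46 members, 0.0658. Expression was 106-fold lower in the erect shoots (counting interval from 55.7 to 233). No other unigene shared its Trinity component.

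DN103423_c0_g3 was the member closest to the upper bound of 20 CPM, with 25, 2 and 20 counts in the erect and 320, 143 and 496 counts in the prostrate replicates. Replicate 2 was the lowest library in both types of shoots, although no pairing of the subsamples by replicate number is stated. DN105261_c0_g3 had 7, 6 and 16 counts in the erect and 170, 360 and 141 counts in the prostrate replicates, and here prostrate replicate 2 was the highest.

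DN93512_c0_g1 stood apart from the rest. It had 46, 0 and 0 counts in erect replicates 1, 2 and 3, against 557, 34 and 201 counts in prostrate replicates 1, 2 and 3. Erect replicate 1 therefore exceeded prostrate replicate 2, and this was the only member whose types of shoots overlapped and the only one that edgeR did not call (adjusted p = 0.0945). Its 46 counts were 32.6% of all member counts in erect replicate 1. Without that library the erect shoots held no count, expression was at least 208-fold lower with 3 counts over the 2 remaining erect libraries as the bound, and edgeR's adjusted p was 0.0363. That library was singled out because it held the erect counts. With any other library omitted the unigene was not called, at adjusted p values from edgeR between 0.0842 and 0.268. It was not called with DESeq2 (0.283) or limma-voom (0.119) either. By edgeR it was called with the replicate number as a block (0.0343) and without a filter (1.35e-21). The fit without a filter gave far lower adjusted p values in other members as well, such as DN106068_c2_g1 (3.91e-20, against 0.0215 in the main fit). Calls of that fit are therefore read with caution.

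The trace of expression in erect shoots was uneven among members. Over the 3 erect libraries 7 members had no count, 11 had 1 to 3 counts, 19 had 4 to 9 and 9 had 10 or more. The median was 5 counts, and the 5 members with the most held 169 of the 359 erect counts, or 47.1%. A count was found in only 1 erect library for 16 members, in 2 for 14 members and in all 3 for 9 members. The mean erect level was under 1% of the prostrate level in 14 members, from 1 to under 2% in 10, and from 2 to under 5% in 22.

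The members without any erect count were not those with the steadiest prostrate expression. DN100292_c3_g8 had 0 counts in each erect replicate, against 152, 14 and 304 counts in prostrate replicates 1, 2 and 3, which made it at least 192-fold lower in the erect shoots with 3 counts over the erect libraries as the bound. DN102411_c0_g1 had no erect count and 118, 161 and 11 counts in the prostrate replicates, at least 119-fold lower by the same bound. In DN101783_c4_g1 the prostrate replicates had 22, 130 and 32 counts, and in DN94930_c0_g2 they had 36, 103 and 19. Their erect levels were at least 75.3-fold and at least 64.6-fold lower. Each of these 4 unigenes was thus abundant in 1 or 2 of the prostrate libraries and low in another, and not always in the same one. The other members without an erect count were DN102429_c0_g2, DN96223_c1_g1 and DN98927_c5_g2.

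Among members with at least 10 erect counts, a few drew them mainly from 1 library. Beside DN93512_c0_g1, this was so for DN104880_c0_g2, with 1, 2 and 14 counts in the erect and 44, 292 and 133 counts in the prostrate replicates. Erect replicate 3 supplied 82.4% of its erect counts. DN97550_c0_g1 had 4, 9 and 1 counts in the erect and 146, 66 and 94 counts in the prostrate replicates, and 64.3% of its erect counts came from replicate 2. So the libraries that held the trace differed between these members.

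The CV over the prostrate replicates was higher in the members than in other unigenes of their level. It was computed on the same prostrate values that the rule used, and is therefore a description of the unigenes chosen. For comparison, 7844 other unigenes also had at least 10 counts in each prostrate library and from 2 to under 20 CPM on average. The CV over the 3 prostrate libraries had a median of 0.763 in the members (quartiles 0.486 and 0.846) and of 0.306 in the other unigenes (quartiles 0.188 and 0.458). The members also had lower levels (median 4.18 CPM, against 5.82 CPM), and the difference in CV was not tested. Within narrower ranges of level the medians were 0.675 for 28 members and 0.340 for 3398 others from 2 to under 5 CPM, 0.826 for 12 members and 0.300 for 2184 others from 5 to under 10 CPM, and 0.418 for 6 members and 0.263 for 2262 others from 10 to under 20 CPM. The highest prostrate library was more than 5-fold above the lowest in 22 members (47.8%) and in 420 of the other unigenes (5.35%). Without prostrate replicate 2 the medians over the libraries that were left were 0.479 in the members and 0.244 in the others, without prostrate replicate 1 they were 0.541 and 0.318, and without replicate 3 they were 0.644 and 0.199.

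**Figure D2:**
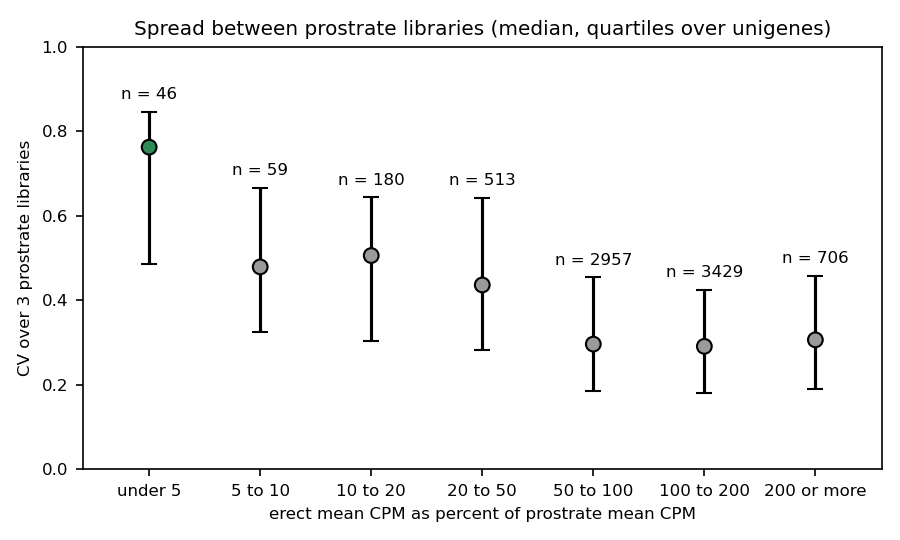
CV over the 3 prostrate libraries (vertical axis) of unigenes with 2 to under 20 CPM in prostrate shoots, grouped by the erect mean as a percent of the prostrate mean (horizontal axis). Points are medians and bars reach the quartiles over unigenes. The members (green, under 5%) have a median of 0.763, the groups from 5 to under 50% have medians between 0.436 and 0.506, and the groups from 50% upwards lie near 0.3.

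The highest prostrate library differed between members. Of the members 19 were highest in prostrate replicate 1, 12 in replicate 2 and 15 in replicate 3, whereas among the other unigenes of the level 27.9, 29.3 and 42.8% were highest in replicates 1, 2 and 3. The lowest value was in replicate 1 for 11 members, in replicate 2 for 19 and in replicate 3 for 16. The most frequent patterns, with 12 members each, were highest in replicate 1 with lowest in replicate 3, and highest in replicate 3 with lowest in replicate 2. Under TMM scaling the numbers highest in replicates 1, 2 and 3 were 17, 14 and 15.

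The members were sorted into 4 classes of evenness across the prostrate libraries, by set limits on a continuous range of values. In 9 members the highest prostrate library was less than 2-fold above the lowest, namely DN103237_c1_g1, DN103189_c0_g1, DN99249_c0_g1, DN93866_c0_g1, DN94537_c0_g2, DN94918_c0_g1, DN96625_c0_g1, DN87397_c0_g2 and DN101254_c0_g1. Among these was DN94537_c0_g2, with 0, 7 and 0 counts in the erect and 62, 58 and 47 counts in the prostrate replicates, whose erect counts all came from replicate 2. DN101254_c0_g1, also among the 3 with the smallest CV (0.192), had 0, 1 and 2 counts in the erect and 38, 35 and 28 in the prostrate replicates. A ratio from 2 to under 5 was found in 15 members and a ratio from 5 to under 10 in 13.

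At the other end, 9 members had a highest prostrate library at least 10-fold above the lowest. The largest CV among the members, 1.47, was that of DN106068_c2_g1, with 1, 0 and 0 counts in the erect and 14, 13 and 261 counts in the prostrate replicates. Most of its signal came from prostrate replicate 3, and the ratio of 353 to the erect shoots had a counting interval from 62.9 to 14007. DESeq2 gave DN106068_c2_g1 no adjusted p, and limma-voom did not call it (adjusted p 0.0799). Nor did edgeR without erect replicate 1, 2 or 3 (adjusted p 0.0910, 0.0768 and 0.0779). DN96223_c1_g1, whose highest prostrate library was 9.15-fold above the lowest, had no erect count and 120, 14 and 14 counts in the prostrate replicates, with replicate 1 the high one and a CV of 1.24. DN95070_c0_g1 had 1, 4 and 6 counts in the erect and 18, 285 and 84 in the prostrate replicates, with replicate 2 the high one and a CV of 1.12. In these 3 unigenes, each led by a different prostrate library, the mean over the prostrate shoots describes no single library well.

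The thresholds cut through a continuous range of values. Of the unigenes of the level, members included, 0.583% had an erect mean under 5% of the prostrate mean. A further 59 unigenes lay from 5 to under 10%, 180 from 10 to under 20% and 513 from 20 to under 50%. The member closest to the 5% limit was DN93512_c0_g1 at 4.79%, and the nearest unigene outside was DN97156_c3_g1 at 5.36%, with 47, 0 and 0 counts in the erect and 259, 214 and 245 counts in the prostrate replicates. At the lower bound of 2 CPM, DN103257_c2_g2 lay inside at 2.02 CPM, with 0, 2 and 0 counts in the erect and 57, 14 and 30 in the prostrate replicates, and DN95156_c2_g1 lay outside at 1.95 CPM. At the upper bound, DN103423_c0_g3 lay inside at 18.9 CPM and DN90384_c0_g1 outside at 22.2 CPM.

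**Figure D3:**
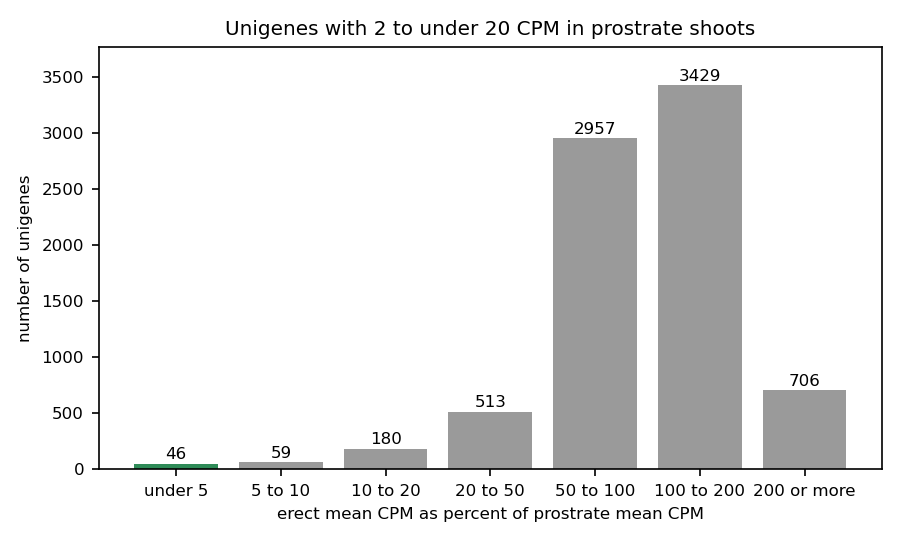
Number of unigenes (vertical axis) with at least 10 counts in each prostrate library and 2 to under 20 CPM on average, by the erect mean CPM as a percent of the prostrate mean (horizontal axis). The 46 members (green) are the low end of a distribution that peaks with 3429 unigenes from 100 to under 200%.

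The minimum of 10 counts in each prostrate library removed most unigenes with the same level and ratio. Without it there were 179, and 133 of them were dropped because at least 1 prostrate library held fewer than 10 counts. In 94 of the 133 this was so in 2 prostrate libraries, and 77 had no count at all in 2. Of the 133, 39 were highest in prostrate replicate 1, 10 in replicate 2 and 84 in replicate 3. DN101622_c0_g5 was the member just inside, with 0, 0 and 1 counts in the erect and 10, 131 and 131 counts in the prostrate replicates. DN98338_c1_g2, just outside, had no erect count and 9, 100 and 25 counts in the prostrate replicates.

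To read the restriction to prostrate shoots in libraries that had no part in the choice, the rule was applied to 5 libraries and the unigenes found were read in the remaining one. With erect replicate 1 left out, 52 unigenes were found, and in erect replicate 1 itself 36 of them (69.2%) were under 5% of the prostrate mean, with a median of 1.02%. With erect replicate 2 left out, 33 of 82 (40.2%) were under 5% in that library, and the median was 11.0%. With erect replicate 3 left out, the number was 30 of 65 (46.2%), with a median of 5.77%. Under 50% of the prostrate mean were 98.1, 90.2 and 96.9% of the unigenes in erect replicates 1, 2 and 3. A level under 50% was thus found in the library left out in 90.2% or more of the unigenes, and a level under 5% in fewer. The prostrate mean came from libraries that chose the unigenes, so only the erect value had no part in the choice. Each of these readings rests on 1 library without a test.

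The prostrate libraries left out were read by another measure, a minimum of 10 counts, and here too a part of the unigenes fell short. Unigenes found without prostrate replicate 1 had at least 10 counts there in 39 of 56 cases (69.6%), those found without replicate 2 in 43 of 71 (60.6%) and those found without replicate 3 in 55 of 76 (72.4%). No count at all was found in the library left out for 4, 17 and 1 of them. Their CPM there lay above each erect library in 85.7, 76.1 and 97.4% of cases. The erect libraries took part in this choice and were low by the rule, so these shares follow largely from it. No share over all unigenes is given for this reading. Their level in the library left out had a median of 39.2, 25.2 and 36.6% of the mean of the other prostrate libraries. So the level in a library that had no part in the choice was lower than in those used, in the median.

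**Figure D4:**
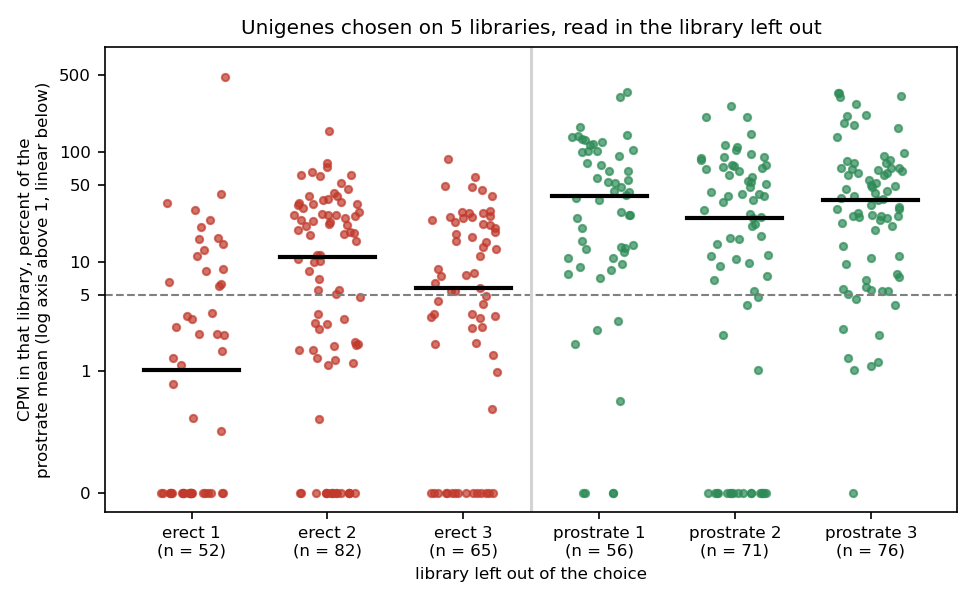
Unigenes chosen by the rule on 5 libraries and read in the library left out (horizontal axis, erect left of prostrate, n unigenes below each), as a percent of the prostrate mean of the choosing libraries (vertical axis, logarithmic above 1). Black lines are medians, at 1.02, 11.0 and 5.77% for the erect and 39.2, 25.2 and 36.6% for the prostrate libraries, and the dashed line marks 5%.

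The members were spread over the assembly. Each of the 46 lay in a different Trinity component. Of these, 17 (37.0%) were the only unigene of their component, as were 29.1% of the other unigenes of the level. The remaining 29 components held 102 further unigenes, or component mates, whose counts the rule did not use. Of the 102, 29 in 18 components passed edgeR's filter. At least 1 library had a value that was not a whole number in 69.6% of the members and in 82.4% of the other unigenes of the level. Estimated counts can divide reads between similar unigenes, and the split between a member and its mates is therefore uncertain.

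Component mates tended towards the prostrate shoots. That the members differed far more follows largely from the rule, which chose the members and not the mates by this difference. Among the 29 tested mates, 11 (37.9%) were higher in the prostrate shoots (edgeR, quasi-likelihood, p adjusted after Benjamini-Hochberg over all unigenes), 1 (3.45%) was higher in the erect shoots and 17 were not called. Over all tested unigenes these shares were 5.31 and 7.94%. The other 362 unigenes of the level that were called higher in the prostrate shoots had 278 tested mates, of which 14.7% were called in that direction and 3.6% in the opposite one. The median log2 fold change was -1.15 for the mates of members and -0.43 for the mates of these other unigenes. Whether the shares differ beyond chance was not tested, as mates of the same component share sequence and reads.

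In several components a mate was also higher in the prostrate shoots. DN101157_c1_g1, the mate of DN101157_c1_g2, had 17, 8 and 7 counts in the erect and 599, 377 and 530 counts in the prostrate replicates (a log2 difference of -5.84 with a standard error of 0.368, edgeR's adjusted p 0.000111). The member itself had 1, 0 and 0 counts in the erect and 87, 23 and 109 in the prostrate replicates, and with both added together the component was at 1.66% of its prostrate level in the erect shoots. In component DN105261_c0 the mate DN105261_c0_g1 had 291, 252 and 346 counts in the erect and 673, 1026 and 1250 counts in the prostrate replicates (log2 fold change -2.02, edgeR's adjusted p 0.00297). This was a smaller difference than in the member DN105261_c0_g3, and the other mate, DN105261_c0_g2, had 23, 34 and 25 counts in the erect and 15, 28 and 12 in the prostrate replicates and was not called (adjusted p from edgeR 0.782). Both mates of DN103423_c0_g3 were higher in the prostrate shoots, with log2 fold changes of -2.30 and -2.86.

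In other components the member was a small part of a unigene group whose summed erect level was over 50% of the prostrate level. DN103372_c0_g6 had 0, 3 and 6 counts in the erect and 182, 20 and 297 counts in the prostrate replicates. Its mate DN103372_c0_g2 had 2071, 2350 and 2834 counts in the erect and 2630, 2601 and 2353 counts in the prostrate replicates and was not called (log2 fold change -0.36, adjusted p from edgeR 0.310). A further mate, DN103372_c0_g7, was called higher in the prostrate shoots (log2 fold change -4.06, adjusted p from edgeR 0.0041). It had 2, 2 and 2 counts in the erect and 41, 14 and 33 counts in the prostrate replicates. The member supplied 4.46% of the prostrate counts of the component, whose summed level in the erect shoots was 77.8% of that in the prostrate shoots. DN104517_c0_g8 had 0, 2 and 4 counts in the erect and 117, 18 and 227 in the prostrate replicates, in a component whose summed erect level was 63.8% of the prostrate level. In both members prostrate replicate 2 was at least 10-fold below prostrate replicate 3.

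A single member had a mate called in the opposite direction. DN101640_c0_g4 had 0, 1 and 2 counts in the erect and 59, 23 and 142 counts in the prostrate replicates. DN101640_c0_g3, of the same component, had 2604, 2167 and 1964 counts in the erect and 667, 661 and 1148 counts in the prostrate replicates (a log2 difference of 1.16 with a standard error of 0.223, edgeR's adjusted p 0.0131). Neither unigene had overlapping values between erect and prostrate libraries, and the member rested on far fewer counts. The call of the mate was lost without erect replicate 1, without erect replicate 2 and without prostrate replicate 1, at adjusted p values from edgeR of 0.0543, 0.0539 and 0.0543. Summed over the component, the erect level was 207% of the prostrate level, so the restriction of the member did not extend to the component. Of the 29 components with mates, 15 were still under 5% when their unigenes were summed, 14 were at 5% or over, and 3 were at 50% or over. The 17 components that held the member alone were under 5% by the rule, which made 32 of the 46 under 5%.

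**Figure D5:**
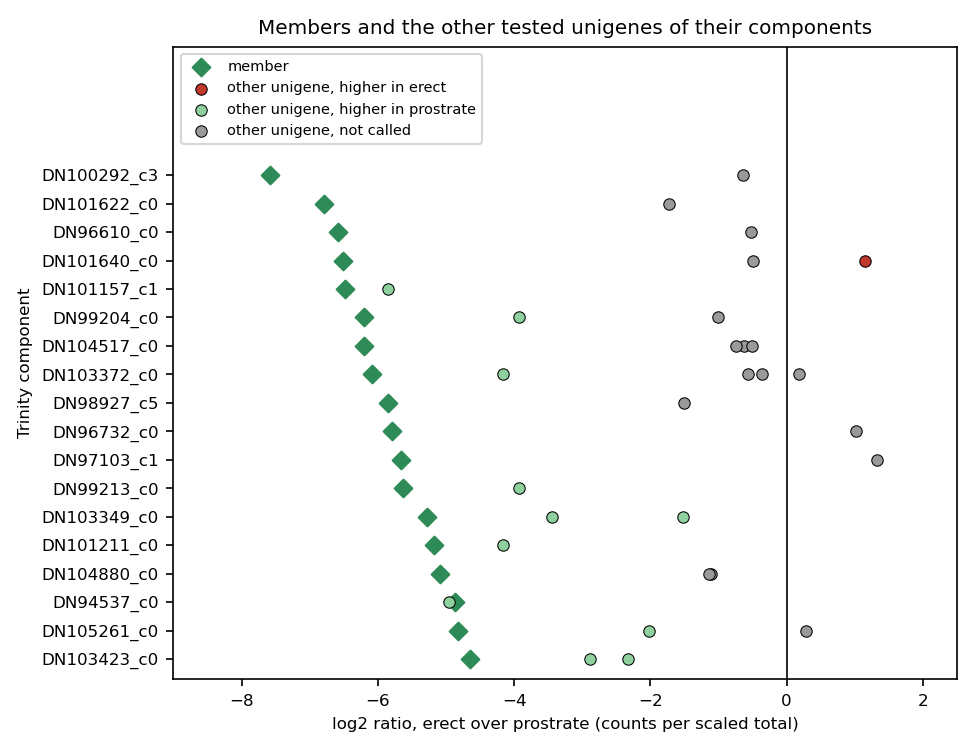
Log2 ratio of erect over prostrate counts per scaled total (horizontal axis) for members (diamonds) and the other tested unigenes of their components (circles) in the 18 Trinity components with a tested mate (vertical axis). Unigenes with 3 or fewer erect counts are set to a floor of 3 counts. Members lie to the left of their mates except in DN94537_c0, which follows largely from the rule that chose the members. Of the mates, 11 are called higher in prostrate shoots (light green), 1 is called higher in erect shoots (red) and 17 are not called (grey).

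The unigenes whose pattern over the 6 libraries was most like the summed CPM of the members were DN105449_c0_g2, DN105927_c1_g3 and DN103601_c3_g1, with Pearson correlations of 0.999, 0.999 and 0.998 on log2(CPM + 1). They were picked for this likeness, and a correlation over 6 libraries in 2 types of shoots mainly reflects the difference between these types. Their own difference was much smaller. DN105449_c0_g2 had 13.3 ± 1.48 CPM (SD, n = 3) in the erect and 50.4 ± 1.89 CPM (SD, n = 3) in the prostrate shoots, and DN103601_c3_g1 had 17.7 ± 1.69 and 57.3 ± 1.74 CPM in the erect and prostrate shoots.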

How the data were processed

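RNA-seq was analysed for 3 libraries of erect and 3 of prostrate shoots. Trinity was the authors' assembler, and the deposited values are estimated counts of each unigene, neither normalized nor pooled. The submitters' processing notes name Trimmomatic 0.36 and HISAT2 2.1.0. For the counting step, no program was given in the sources. Rounding of these estimated counts to integers was done in Python 3.11.15, and CPM used the total of each library. Depth is given with the results, and intervals cover counting error only.

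The main test was edgeR 4.0.16 in R 4.3.3 (glmQLFit and glmQLFTest, TMM, filterByExpr at 10 counts per library and 15 in total, prior count 0.125). The model held the type of shoot alone and used all 6 libraries. DEGs had an adjusted p (Benjamini-Hochberg) below 0.05 together with a log2 change of more than 1 in either direction. Alternatives were DESeq2 1.42.0, limma-voom (limma 3.58.1), other scalings and filters, the replicate number as a block, and each library left out. The fits were also run on simulated counts, drawn with means and dispersions taken from these libraries.

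The members, lists and tests were chosen with earlier results of these data known. Named are the members with the highest prostrate CPM, without erect counts, with the largest and smallest CV, with erect counts mainly in 1 library, nearest to a threshold, with a mate higher in erect shoots or named in the study's text. Also named are the unigenes just outside the thresholds and those most alike. Further members and mates of a component were named as examples after their values were seen. No component held more than 1 member. Sequences, lengths and annotations were not used here.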

Additional observations from a re-analysis of the deposited data

How the results depend on the processing

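The number of members depended most on the rule itself. It was 24 with a limit of 2% and 105 with a limit of 10% in place of 5%, 29 with a minimum of 20 counts, and between 52 and 82 with each library left out. The mirror rule found 145 unigenes at 2% and 341 at 10%. TMM-scaled totals gave 50 members, including all 46, and 214 unigenes by the mirror rule. The unigenes called higher in prostrate shoots numbered 1236, but 2167 with DESeq2, 3468 without a filter, 703 with a mean count of at least 50, and between 637 (without erect replicate 1) and 1360 (without prostrate replicate 3) with a library left out. With the same mean count 14 members and 5 mates were called, against 45 and 11. Mates called higher in prostrate shoots were 22 with DESeq2 (5.14% of all 42136 unigenes tested) and 34 without a filter (1.68% of 206556). They were between 8 and 13 with a library left out. These fits tested more unigenes than the 23275 of the main fit, where 29 of the 102 mates were tested. The numbers of mates called are thus not directly comparable. With the replicate block 701 unigenes, 39 members and 9 mates were called higher in prostrate shoots, and the number of mates called higher in erect shoots was 0, as against 1 (DN101640_c0_g3, adjusted p from edgeR 0.0524). That number was between 0 and 1 with a library left out. The same-numbered libraries did not deviate together (correlations of -0.31, -0.04 and -0.09), which gave no sign of pairing by number but cannot exclude it. The median log2 ratio of the members was -4.63 as a fitted fold change with a prior count of 2, and between -5.61 and -5.33 with a library left out. The median CV was between 0.479 and 0.644 with a prostrate library left out. For 21 of the unigenes named here, 230 of 262 values under alternatives stayed on the same side of the DEG thresholds. Of the rest, 29 were no longer past them and 3 were newly past, and none changed direction. Not every unigene named in the text was among the 21. At this depth, ratios that rest on 3 or fewer erect counts have wide counting intervals.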

Other observations

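With the types of shoots exchanged, the same rule found 230 unigenes that were nearly restricted to erect shoots at 2 to under 20 CPM, as against 46 for the prostrate shoots. These numbers were 145 and 24 with a limit of 2%, 341 and 105 with a limit of 10%, and 214 and 50 with TMM-scaled totals, so the size of the contrast depended on the limit. The minimum of 10 counts in each library removed 133 of 179 unigenes on the prostrate side. Its effect on the erect side was not computed. Each erect library was also deeper than each prostrate library, so the same minimum was a lower CPM there. The CV of these 230 over the erect libraries had a median of 0.280, and that of the 8079 other unigenes of the same erect level was 0.182. Here the highest erect library was more than 5-fold above the lowest in 8.26% of the 230 unigenes and in 2.62% of the others, compared with 47.8% of the 46 prostrate members and 5.35% of the other unigenes at their level.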
